A study of Mus musculus with 9 samples.

Results

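The T cell receptor alpha and beta V segments are the genes whose mouse symbols begin with Trav or Trbv. All such symbols of the GENCODE M21 annotation were taken (GRCm38, the same build as mm10), which gave 163 genes of the 55487 in the files: 128 Trav and 35 Trbv segments. They were followed in poly(A) RNA of splenic naive CD4+ T cells (helper T cells not yet activated by antigen) of WT C57BL6/J mice. The 9 libraries form 3 groups of 3: mice with no treatment, mice given neutralizing antibodies to IL-1b on 10 consecutive days, and mice given MCC950, an inhibitor of the inflammasome sensor NLRP3, on 10 consecutive days. Sorting gate, sex, age, batch and the mouse behind each library are not in the labels. The p-values therefore reflect spread among 9 libraries, and that spread may be technical.

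In the thymus, each alpha chain gene is joined from 1 alpha V segment and a J segment. Each beta chain gene is joined from 1 beta V segment, a D and a J segment. The promoter of the joined V segment then drives the chain. Counts over V segments in RNA of many T cells therefore describe which joined segments the cells transcribe, weighted by the RNA each cell makes. They do not give the number of segments per cell. In bulk RNA, fewer cells that use a segment and less RNA per cell cannot be told apart. The Trav segments lie on chromosome 14, from 52427928 to 53977678, and 108 of 128 are annotated as functional. The Trbv segments lie on chromosome 6, from 40891229 to 41558452, and 22 of 35 are annotated as functional. Trbv31 alone is on the reverse strand, behind the constant genes.

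The segments on which the results turn are shown by the last 60 bases of their GENCODE M21 transcripts, 5′ to 3′, because this end holds the codon of the conserved cysteine at which the V region meets the variable junction. Capitals mark each in-frame cysteine codon, and Trbv1 has a pair of them.
Trbv13-2 (chr6:41121396-41121832, plus strand): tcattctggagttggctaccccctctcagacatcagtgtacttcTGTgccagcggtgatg
Trbv13-1 (chr6:41116007-41116468, plus strand): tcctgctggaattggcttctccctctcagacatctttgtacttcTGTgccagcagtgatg
Trbv13-3 (chr6:41130147-41130585, plus strand): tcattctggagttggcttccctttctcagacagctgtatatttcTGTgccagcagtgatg
Trbv19 (chr6:41178375-41179048, plus strand): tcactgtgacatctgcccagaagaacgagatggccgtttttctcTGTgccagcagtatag
Trbv3 (chr6:41048290-41048828, plus strand): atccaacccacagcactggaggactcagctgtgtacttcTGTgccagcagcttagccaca
Trbv1 (chr6:40891229-40891885, plus strand): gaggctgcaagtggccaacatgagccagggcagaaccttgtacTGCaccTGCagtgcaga
Trav14d-3-dv8 (chr14:53078452-53079045, plus strand): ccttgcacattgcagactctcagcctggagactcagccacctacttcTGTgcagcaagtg
Trav14n-3 (chr14:53370077-53370575, plus strand): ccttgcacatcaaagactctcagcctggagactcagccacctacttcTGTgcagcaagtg
Trav14-3 (chr14:53763173-53763694, plus strand): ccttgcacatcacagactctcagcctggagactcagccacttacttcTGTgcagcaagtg
Trav10 (chr14:53505727-53506286, plus strand): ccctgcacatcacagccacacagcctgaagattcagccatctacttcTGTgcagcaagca
The beta segments are distinct enough to be told apart: the closest pair, Trbv13-2 and Trbv13-3, share 90.6% of their bases. Many alpha segments are not, as Trav14d-1 and Trav14n-1 show, whose transcripts are the same. Trav14n-3 and Trav14-3 share 98.2%, and both held whole-number expected counts in every library, 33 to 101 and 28 to 107. Whole numbers alone do not show that copies were told apart. Trav7-2 held them as well, beside its near-identical copy Trav7d-2 at 0.

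V segments made up a small part of each library. Of 14775375 to 21394797 expected counts per library, 2589 to 3626 lay in Trav and 3449 to 4477 in Trbv segments. The number of counts per segment sets the precision, and only 2 Trav and 14 Trbv segments had a mean of at least 100 counts per library. Of the 163 members, 107 passed the filter on low counts (85 Trav and 22 Trbv), and the 56 others are described by their counts alone. Markers of T cells were abundant throughout: the 8 markers of naive T cells, among them Cd4 and Ccr7, summed to 6125 to 6238, 6031 to 6038 and 5472 to 5485 CPM (counts relative to the TMM-scaled library total) without treatment, with anti-IL-1b and with MCC950.

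Among beta segments, Trbv13-2 (once named Vβ8.2, as the RefSeq gene table of GRCm38.p6 records) was the most abundant in every library. Per length it stood at a mean of 329 TPM over the 9 libraries (range 292 to 389), and it took 11.6% to 14.3% of all Trbv counts. Per length, the next were Trbv13-3 (Vβ8.1) at 148 TPM, Trbv16 (Vβ11) at 142, Trbv1 (Vβ2) at 138, Trbv13-1 (Vβ8.3) at 134, Trbv3 (Vβ16) at 132 and Trbv31 (Vβ14) at 128 TPM. These 6 do not differ in level beyond their spread, since Trbv13-3 ranged over 118 to 162 TPM and Trbv31 over 113 to 141. Trbv15 (Vβ12) followed at 95.8 TPM.

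By share of counts, which also follows length, Trbv3 was next after Trbv13-2 at 9.78% on average, followed by Trbv1 at 8.57% and Trbv16 at 7.97%. Trbv12-1 (Vβ5.2) took between 0.974% and 2.27% of Trbv counts. Trbv29 (Vβ7) took 2.23% to 3.76%. At the low end, the functional segments Trbv21, Trbv30 and Trbv23 had means of 1.22, 8.33 and 17.8 counts per library.

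**Figure D1:**
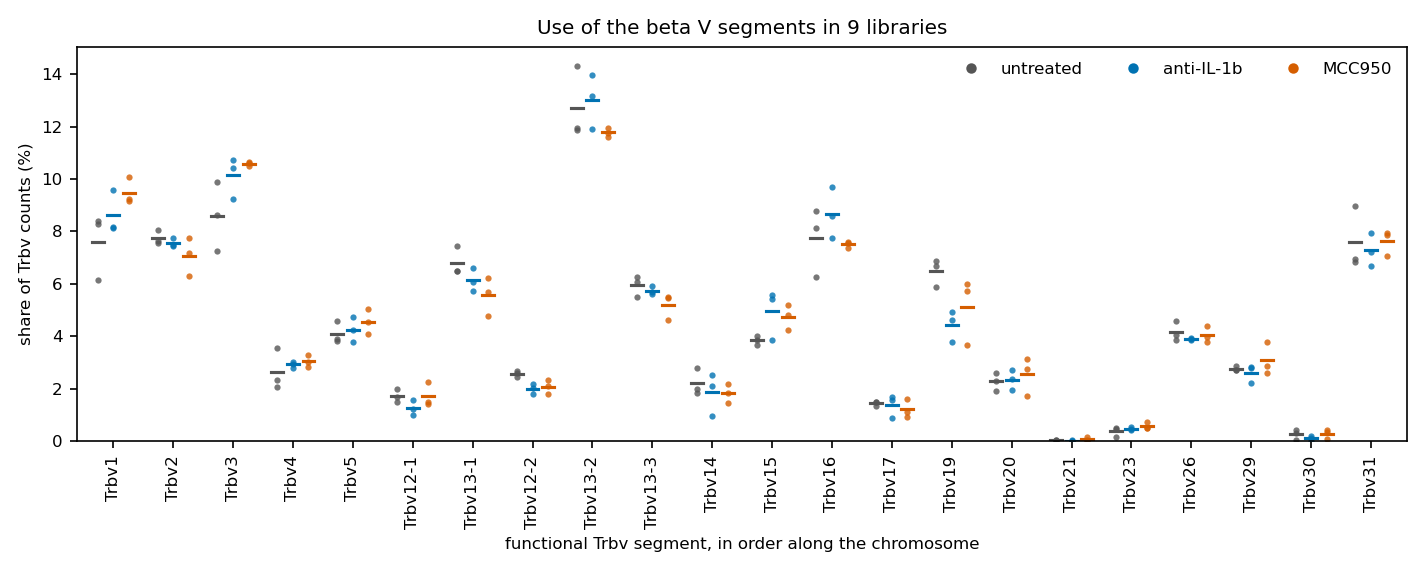
Share of Trbv counts (%, vertical axis) of the 22 functional beta V segments in order along the chromosome; points are libraries, lines are means of 3. Trbv13-2 was highest in all 9 libraries, at 11.6% to 14.3%, and Trbv21 lowest on average.

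Segments annotated as pseudogenes were nearly silent. They took 0.470% to 1.36% of Trav counts and 0.131% to 0.529% of Trbv counts. The highest were Trav8-2, with a mean of 15.8 counts per library, and Trbv24, with 12.0, and these were the only pseudogenes that passed the filter. Of the functional segments, Trav7d-2, Trav11 and Trav23 were listed at 0 in all 9 libraries, and the first 2 of these have a near-identical copy with counts.

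Alpha V use was spread over more segments. By family, the 9 Trav14 members took 18.5% to 21.5% of Trav counts, and the families Trav9, Trav6, Trav7 and Trav4 took 11.5%, 11.5%, 11.2% and 10.2% on average. Per length, Trav4-4-dv10 was highest at 69.4 TPM (range 58.1 to 79.0), followed by Trav7-2 at 58.7 (37.5 to 87.9), Trav3-3 at 41.1, Trav14n-3 at 39.4, Trav14d-3-dv8 at 39.3, Trav14d-1 and Trav14n-1 at 38.9 each, and Trav6-5 at 33.9 TPM. The ranges of neighbours in this order overlap. No single alpha segment took more than 4.49% of Trav counts in any library. The plot of the alpha families shows the same order of the leading family in each group.

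**Figure D2:**
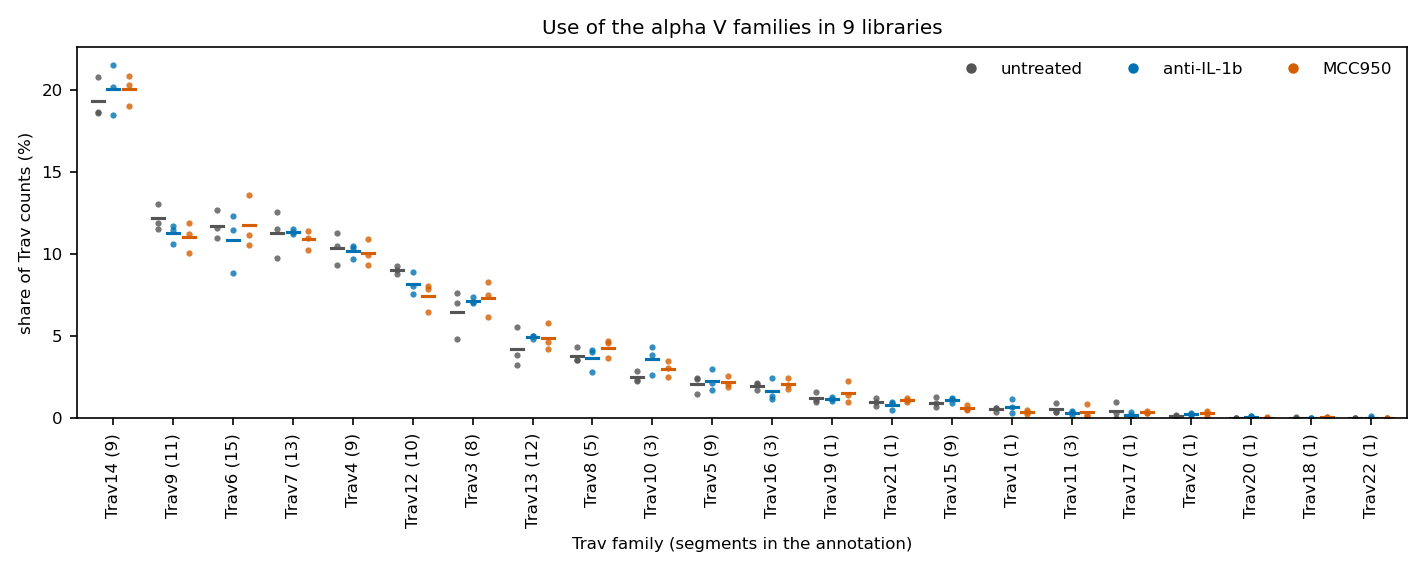
Share of Trav counts (%, vertical axis) of each Trav family with any count, with its number of segments in parentheses; points are libraries, lines are means of 3. Trav14 was highest in all 9 libraries at 18.5% to 21.5%, and the groups overlap in most families.

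Evenness can be given as an effective number, the count of equally used segments that would give the same Shannon diversity. For Trav it was 72.1, 73.1 and 70.3 in untreated libraries, 68.0, 68.5 and 68.6 with the antibody, and 67.4, 71.9 and 68.6 with MCC950. All 3 antibody libraries lay below the untreated ones, by 3.43 segments on average (exact permutation test, two-sided, p = 0.10, the smallest that 3 against 3 allow). The 12 tests of this kind gave an adjusted p of 0.343 at best. The difference was 2.65 segments lower when near-identical copies were summed, but 0.115 higher when families were. For Trbv the effective number was 15.8 to 17.0 over all libraries, and the groups overlapped.

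Over all pairs of libraries, usage differed about as much between libraries of a group as between groups. The share of counts that would have to move to another segment to make 2 libraries alike was 12.5% to 19.2% of Trav counts within groups and 13.7% to 19.5% between groups. For Trbv it was 5.34% to 9.28% within groups and 5.03% to 10.3% between groups. The medians for Trbv were 6.20% and 7.57%. By comparison, Trbv differed by 7.07% to 10.3% between untreated and MCC950 libraries. That lies above all pairs within MCC950 (5.49% to 6.80%) but overlaps those within untreated (5.34% to 9.28%). It was 5.79% to 9.48% between untreated and antibody libraries and 5.03% to 7.74% between the agents.

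Many alpha segments cannot be read 1 by 1. A part of the Trav locus is duplicated in C57BL/6 mice, and copies are named with d and n. Of the 128 Trav segments, 34 form 17 pairs with the same transcript sequence, and each such pair had equal expected counts in every library. These pairs held 25.9% to 28.8% of Trav counts. In all, 73 Trav segments fall into 33 groups of copies that share at least 98% of their bases, with 60.3% to 65.1% of Trav counts, and no Trbv segment falls into such a group.

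Some copies that differ by a few bases at 1 end were counted all or none. Trav12d-3 and Trav12n-3 have the same transcript except for 6 more bases at the 5′ end of Trav12n-3. Trav12d-3 had 0, 45 and 0 counts in untreated libraries 1 to 3 while Trav12n-3 had 42, 0 and 35. With the antibody the counts were 0, 26 and 35 for Trav12d-3 against 25, 0 and 0 for Trav12n-3. Each library thus gives nearly all counts to 1 copy, and their sum ran from 18 to 45. Trav7d-2 was listed at 0 in all 9 libraries while Trav7-2 had 57 to 117 counts.

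The last bases of these and of the Trav11 pair show how little separates the copies. Capitals mark the 1 base that the longer transcript has and the shorter lacks.
Trav7d-2 (chr14:52683964-52684472, plus strand): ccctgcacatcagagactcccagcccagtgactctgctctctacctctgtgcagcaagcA
Trav7-2 (chr14:53390635-53391142, plus strand): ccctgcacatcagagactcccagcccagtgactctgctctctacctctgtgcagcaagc
Trav11 (chr14:53519303-53519859, plus strand): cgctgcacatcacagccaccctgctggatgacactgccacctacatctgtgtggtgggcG
Trav11d (chr14:52824357-52824912, plus strand): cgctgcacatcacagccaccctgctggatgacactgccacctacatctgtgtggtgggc
In both pairs the shorter transcript lies wholly within the longer one, and it was the shorter that held the counts. Values of such segments are uncertain singly, and their sums are given where a result turns on them.

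**Figure D3:**
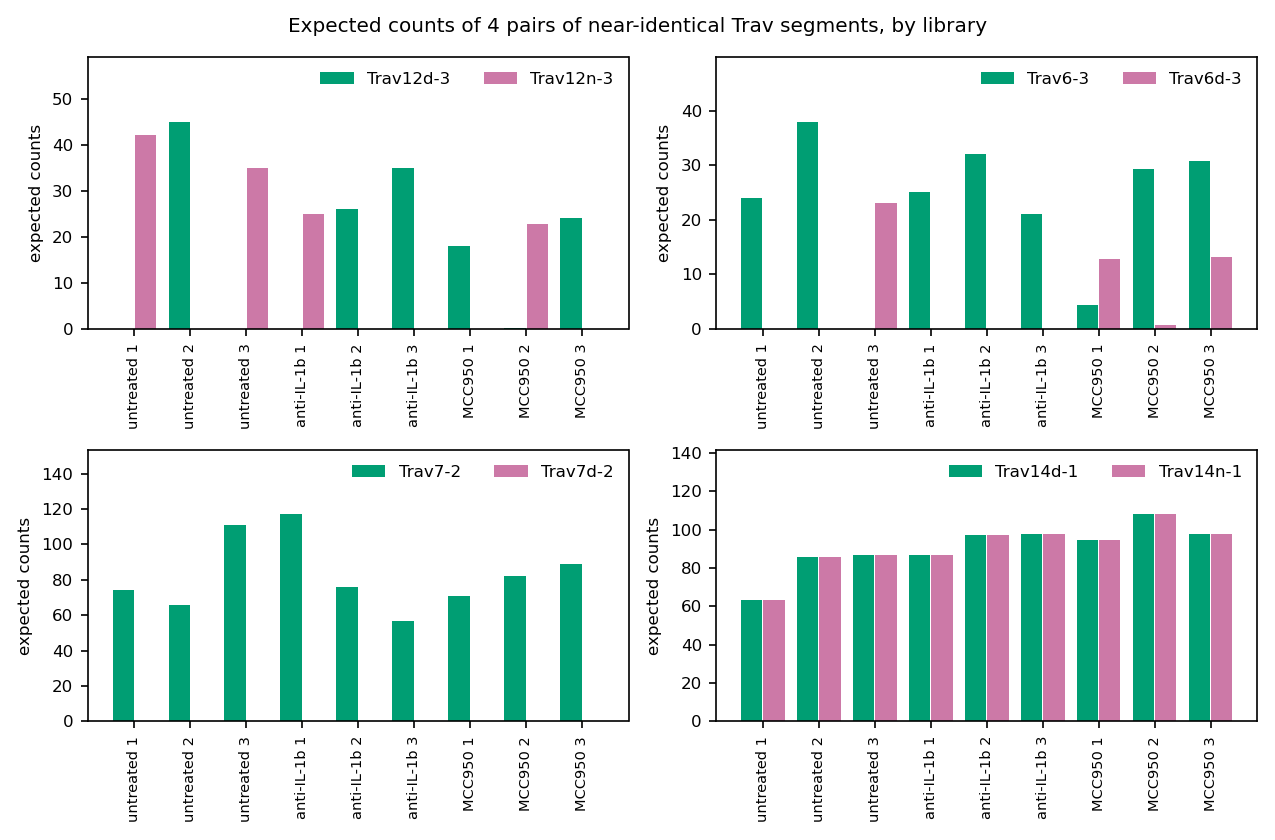
Expected counts (vertical axis) of 4 pairs of near-identical Trav segments in each of the 9 libraries. In the Trav12 pair 1 copy holds nearly all counts of a library, Trav7d-2 stays at 0, and Trav14d-1 and Trav14n-1, whose transcripts are the same, have equal bars.

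The alpha segments of innate-like T cells were scarce. Invariant NKT cells, which recognize lipids, use Trav11 in their alpha chain. Trav11 was listed at 0, and Trav11d had 12, 31 and 9 counts in untreated libraries, 4, 7 and 10 with the antibody, and 5, 28 and 5 with MCC950. MAIT cells, which recognize bacterial vitamin B2 metabolites, use Trav1, which had 18, 23 and 13, then 33, 8 and 18, then 12, 8 and 15 counts. The groups overlap for both, and neither passed the test. The list of 10 NKT and MAIT cell markers summed to 321 to 338 CPM without treatment, 302 to 325 with the antibody and 281 to 304 with MCC950. Of its 6 tested genes, 1 rose and 3 fell with the antibody, and 0 rose and 3 fell with MCC950. Over all genes tested, 15.4% rose and 18.5% fell with the antibody, and 17.7% rose and 19.1% fell with MCC950. The sums were mostly Slamf6, with 3141 to 4132 counts, and Il18r1, with 1046 to 1822, while Zbtb16, the defining factor of NKT cells, had at most 4 counts in any library and Klrb1c at most 5.

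Summed over each locus, V segments took 170 ± 2.68, 175 ± 3.21 and 176 ± 4.53 CPM on library totals for Trav, and 210 ± 1.99, 234 ± 7.83 and 212 ± 8.78 for Trbv (untreated, anti-IL-1b and MCC950, SD, n = 3). Single Trbv values were 212, 209 and 208 untreated, 229, 230 and 243 with the antibody, and 220, 203 and 213 with MCC950. All 3 antibody libraries were higher than all others (exact permutation test, p = 0.10 against either group, the smallest possible, adjusted p = 0.343). These values depend on the scaling. TMM factors were 0.945 to 0.947 in untreated and 1.02 to 1.04 in treated libraries. On TMM-scaled totals the difference from untreated was -10.8 CPM for Trav with the antibody and -7.96 CPM with MCC950. For Trbv it was -14.5 CPM with MCC950 and 4.98 CPM with the antibody.

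Set against the constant genes of the same chains, V counts do not depend on library scaling. They do depend on the constant genes, which moved too, as given below. Trac fell with both agents, Trbc2 fell with the antibody and Trbc1 rose with MCC950. There were 35.6, 35.4 and 34.4 Trav counts per 100 Trac counts in untreated libraries, 36.5, 37.7 and 37.5 with the antibody, and 36.8, 36.3 and 34.5 with MCC950. For the beta chain there were 22.2, 21.9 and 22.0 Trbv counts per 100 counts of Trbc1 and Trbc2 together, then 23.1, 22.8 and 24.7, then 19.9, 19.2 and 20.0. The 3 groups do not overlap for beta: antibody libraries were highest and MCC950 libraries lowest. This ratio was chosen after its values were seen and was not tested.

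**Figure D4:**
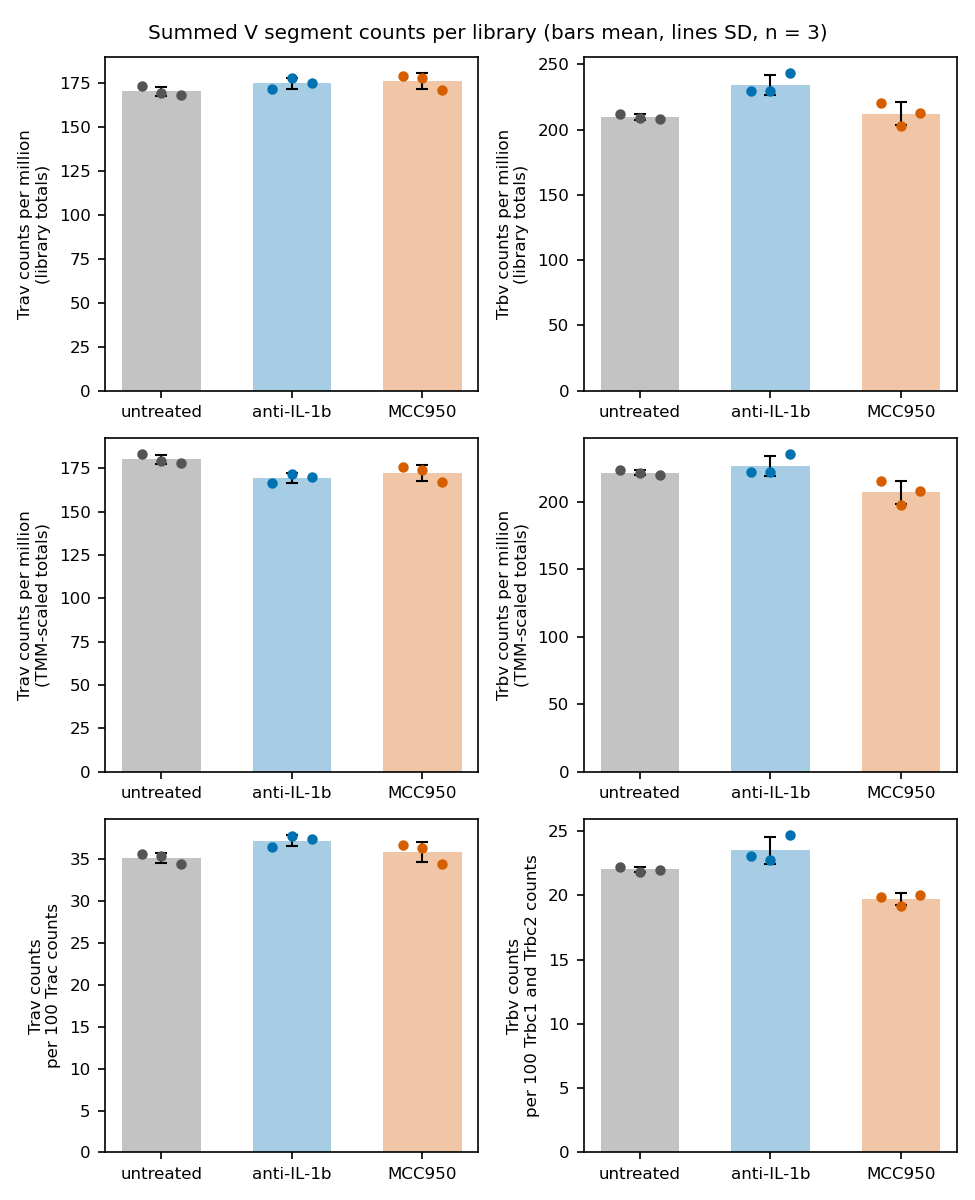
Summed Trav (left) and Trbv (right) CPM on library totals (top) and TMM-scaled totals (middle), and per 100 counts of the constant genes (bottom); bars are group means, lines SD, points libraries. The order of the groups for Trav turns between the top and middle rows, while Trbv per 100 Trbc counts is lowest with MCC950 in all 3 libraries.

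With the antibody against IL-1b, few V segments differed from untreated cells. Trbv19 (Vβ6) fell, Trav14-3 fell and Trav10 rose, which is 3 of 107 segments tested, where 34.0% of all 13374 genes tested were called by the same rule (edgeR's quasi-likelihood test, adjusted p under 0.05; 15.4% higher and 18.5% lower). At an unadjusted p under 0.05 there were 8. The median log2 fold change was -0.10 over the members and 0.00 over all genes. The groups did not overlap in CPM for 17 of the 107, or 15.9%, against 43.2% of all genes.

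Trbv19 had 15.4, 14.8 and 13.0 CPM in untreated libraries and 8.38, 10.2 and 11.6 CPM with the antibody. All 3 antibody libraries were below all 3 untreated ones. The log2 fold change was -0.52 ± 0.17 (SE, adjusted p = 0.0151). As a share of Trbv counts it fell from 6.89%, 6.68% and 5.89% to 3.77%, 4.61% and 4.93%, a log2 fold change of -0.55 ± 0.16 (adjusted p = 0.00486). In CPM the call was lost without untreated library 1 (adjusted p = 0.0658), without anti-IL-1b library 1 (0.103), on library totals alone (0.0630) and in limma-trend on TPM (0.170). As a share it was lost only without anti-IL-1b library 1 (adjusted p = 0.0517) among 15 alternatives.

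Trav10 and Trav14-3 have a mean under 100 counts per library and lie outside the rule for named segments, so they were chosen after their values were seen. Trav10 had 2.13, 3.51 and 2.41 CPM untreated and 5.64, 4.45 and 3.48 CPM with the antibody. The groups overlap by 1 library. Its log2 fold change was 0.75 ± 0.28 (adjusted p = 0.0329), and 0.84 ± 0.28 as a share of Trav counts (adjusted p = 0.0147). Summed with its copies Trav10d and Trav10n, the difference did not pass, at 0.44 ± 0.22 (adjusted p = 0.130) and 0.53 ± 0.22 as a share (adjusted p = 0.0598). In CPM the call was lost without untreated library 1 (adjusted p = 0.116) or 3 (0.0977) and without anti-IL-1b library 1 (0.198) or 2 (0.0640), and as a share without untreated library 1 (0.0748) or 3 (0.0501) and without anti-IL-1b library 1 (0.136).

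Trav14-3 had 2.56, 5.29 and 2.98 CPM untreated and 2.27, 1.80 and 2.23 CPM with the antibody, with no overlap between the groups. Its log2 fold change was -0.78 ± 0.31 (adjusted p = 0.0498). The call was lost in 18 of 21 alternatives, and without untreated library 2, which holds the highest value, the change was -0.40 (adjusted p = 0.419). Summed with its copy Trav14n-3 the adjusted p was 0.232. Each of these held whole-number counts in every library, which alone does not show that they were told apart.

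In shares, 3 Trav segments and 1 Trbv segment passed with the antibody, where 34.4% (23.2% higher, 11.2% lower) and 30.8% (11.8% higher, 19.0% lower) of all genes were called in those fits. Those fits set every gene against the Trav or Trbv total, so for genes outside the locus a call is not one of a share. Beside Trav10 and Trbv19 these were Trav14d-1 and Trav14n-1, a pair with the same transcript sequence, so they count 1 signal. Together they took 4.68% ± 0.44 of Trav counts untreated, 6.96% ± 0.77 with the antibody and 6.41% ± 0.13 with MCC950 (SD, n = 3). Singly, each rose by 0.56 ± 0.21 on the log2 scale (adjusted p = 0.0340), and as a sum by 0.57 ± 0.15 (adjusted p = 0.00275). With MCC950 the sum rose by 0.45 ± 0.15 (adjusted p = 0.0166). In CPM the sum rose by 0.48 ± 0.15 with the antibody (adjusted p = 0.0113) and by 0.39 ± 0.15 with MCC950 (adjusted p = 0.0399). The single call of Trav14d-1 and Trav14n-1 was lost in 5 of 14 alternatives. Among them were the fits without untreated library 1 (adjusted p = 0.103) or 2 (0.0637), and without anti-IL-1b library 2 (0.0889) or 3 (0.113). Trav12d-2 and Trav12n-2 also have the same transcript sequence. Neither passed singly, but their sum fell in CPM with the antibody, by a log2 fold change of -0.64 ± 0.235 (adjusted p = 0.0317).

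With MCC950, 4 of 107 segments differed from untreated cells: Trbv13-1, Trbv19 and Trav14d-3-dv8 fell and Trav14n-3 rose. By the same rule 36.8% of all genes were called, 17.7% higher and 19.1% lower. At an unadjusted p under 0.05 there were 8 members. The median log2 fold change of the members was -0.12, against 0.01 over all genes. The groups did not overlap for 19 of 107 members, or 17.8%, against 47.3% of all genes.

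Trbv13-1 had 16.7, 14.3 and 14.3 CPM untreated and 12.3, 12.4 and 9.93 CPM with MCC950. No MCC950 library reached an untreated one. The log2 fold change was -0.39 ± 0.13 (adjusted p = 0.0204). As a share of Trbv counts it stood at 6.81% ± 0.57 and 5.56% ± 0.74, which did not pass (adjusted p = 0.105). The call was lost without untreated library 1 (adjusted p = 0.116), without MCC950 library 3 (0.145), on library totals alone (0.0984) and in limma-trend on TPM (0.0959).

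Trbv19 was also lower with MCC950, at 12.3, 7.29 and 12.5 CPM, with no overlap. Its log2 fold change was -0.43 ± 0.16 (adjusted p = 0.0378). Its library 2 was far below the other two, and without it the change was -0.22 (adjusted p = 0.337). The call was lost in 8 of 22 alternatives in all: without untreated library 1 (adjusted p = 0.129) or 2 (0.0962) as well, on library totals alone (0.123), with upper-quartile scaling (0.0587), in DESeq2 (0.0587), in limma-trend on TPM (0.216) and without edgeR's robust option (0.0532). As a share it stood at 5.71%, 3.68% and 5.98%, which did not pass (adjusted p = 0.0821). The comparisons of both agents share the same untreated libraries.

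Trav14d-3-dv8, a segment that can join in the alpha or the delta chain, had 8.17, 7.37 and 7.53 CPM untreated and 6.89, 4.38 and 4.94 CPM with MCC950. The groups do not overlap. The log2 fold change was -0.51 ± 0.19 (adjusted p = 0.0341), and as a share the adjusted p was 0.0648. The call was lost in 7 of 22 alternatives. It was lost without untreated library 1 (adjusted p = 0.10) or 3 (0.0572) and without MCC950 library 2 (0.181) or 3 (0.125). The others were library totals alone (0.0960), a filter of 1 count in total (0.0555) and limma-trend on TPM (0.0552).

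Trav14n-3 had 3.84, 2.38 and 2.77 CPM untreated and 4.67, 5.33 and 4.55 CPM with MCC950, with no overlap. The log2 fold change was 0.70 ± 0.28 (adjusted p = 0.0422), and 0.77 ± 0.27 as a share (adjusted p = 0.0216). Summed with Trav14-3 it did not pass, at 0.23 ± 0.19 (adjusted p = 0.363) and 0.30 ± 0.19 as a share (adjusted p = 0.231). Both segments held whole-number counts in every library, which alone does not show that they were told apart. In CPM the call was lost in 9 of 21 alternatives. It was lost without untreated library 2 (adjusted p = 0.158) or 3 (0.105) and without MCC950 library 1 (0.0772), 2 (0.140) or 3 (0.0670). The others were DESeq2 (0.0514), limma-trend on TPM (0.0604), the replicate block (0.0565) and the fit without edgeR's robust option (0.052). As a share the call was lost without untreated library 2 (0.0996) or 3 (0.0596) and MCC950 library 2 (0.0848).

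In shares, 1 Trav and 2 Trbv segments passed with MCC950. Set against the same locus totals, 37.1% (23.3% higher, 13.8% lower) and 36.6% (25.4% higher, 11.2% lower) of all genes were called. The beta segments were Trbv3 and Trbv1. Trbv3 took 8.63%, 9.89% and 7.27% of Trbv counts untreated and 10.5%, 10.7% and 10.6% with MCC950, a log2 fold change of 0.30 ± 0.12 (adjusted p = 0.0369). Trbv1 took 8.28%, 6.14% and 8.41% untreated and 9.15%, 9.22% and 10.1% with MCC950, 0.32 ± 0.13 (adjusted p = 0.0392). In both, the MCC950 libraries lay above all untreated ones.

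Both calls were near the threshold. Trbv3 lost it in 6 of 15 alternatives, among them without untreated library 1 (adjusted p = 0.0740) or 3 (0.266) and without MCC950 library 1 (0.0710), 2 (0.0849) or 3 (0.0805). Trbv1 lost it in 5 of 15 alternatives, among them without untreated library 2 (adjusted p = 0.326) and without MCC950 library 1 (0.0591), 2 (0.0652) or 3 (0.147). The change of Trbv3 and Trbv1 was over 1.5 times smaller without untreated library 3 (0.19) and untreated library 2 (0.18).

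**Figure D5:**
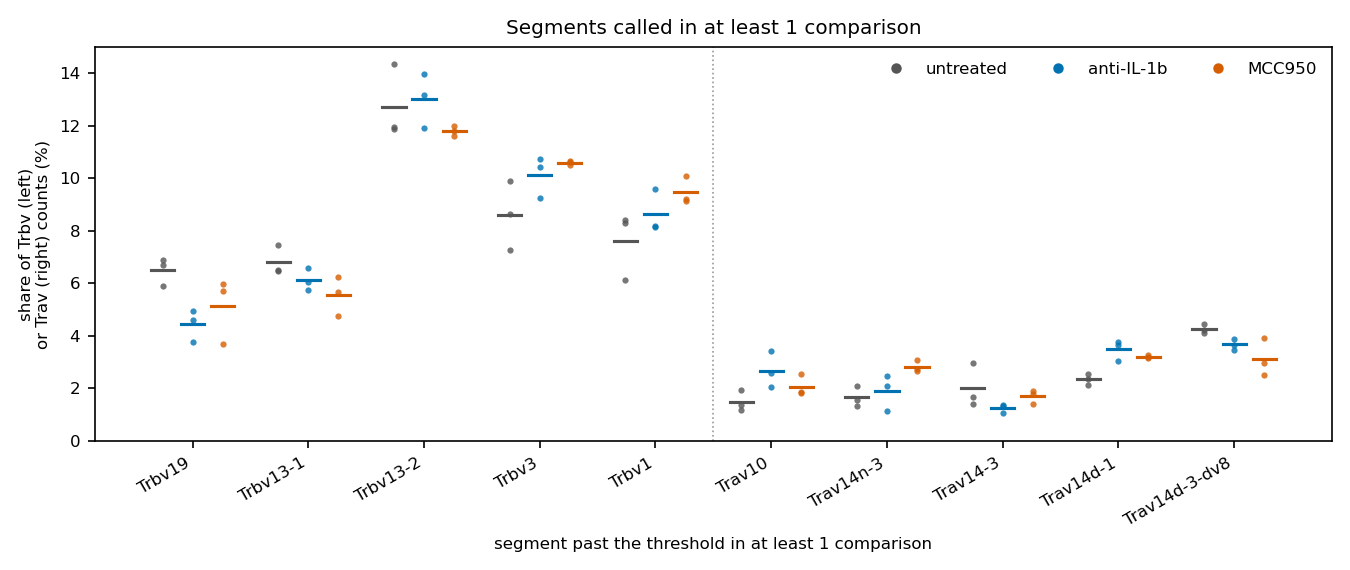
Share of Trbv counts (5 segments on the left) or Trav counts (5 on the right) in each library, in %, for segments past the threshold in at least 1 comparison; points are libraries, lines means of 3. The antibody libraries lie below all untreated ones for Trbv19, at 3.77% to 4.93% against 5.89% to 6.89%, and for Trav14-3 and Trav14d-3-dv8; Trav14n-1, whose counts equal those of Trav14d-1, is not drawn.

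Between the agents, 1 segment passed: Trbv13-2 was higher with the antibody, where 13.2% of all genes were called, 6.13% higher and 7.11% lower. It had 31.1, 29.3 and 28.1 CPM with the antibody and 25.0, 23.7 and 24.5 CPM with MCC950, while untreated libraries spanned 26.3 to 31.6 CPM. The log2 fold change was 0.27 ± 0.09 (adjusted p = 0.0496). The call was lost in 12 of 22 alternatives, among them the loss of any of the 3 antibody or 3 MCC950 libraries (adjusted p of 0.0589 to 0.176) or of untreated library 1 (0.0503). At an unadjusted p under 0.05 there were 3 members, and the groups did not overlap for 12 of 107, or 11.2%, against 29.4% of all genes.

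No share of Trav or Trbv passed edgeR's test between the agents. Set against the same locus totals, 10.7% (6.39% higher, 4.31% lower) and 22.3% (1.36% higher, 21.0% lower) of all genes were called. At an unadjusted p under 0.05 there were 1 Trav and 0 Trbv segments, and limma-voom called 0.

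The 3 Trbv13 segments were together the most used beta family. Summed, they took 25.5% ± 0.85, 24.9% ± 1.45 and 22.6% ± 0.45 of Trbv counts without treatment, with the antibody and with MCC950 (SD, n = 3). In CPM the sum was lower with MCC950 by a log2 fold change of -0.27 ± 0.07 (adjusted p = 0.00102) and higher with the antibody than with MCC950 by 0.27 ± 0.07 (adjusted p = 0.00392). With the antibody against untreated it was -0.00 ± 0.07 (adjusted p = 0.982). As a share of Trbv counts the difference with MCC950 did not pass, at -0.18 ± 0.08 (adjusted p = 0.0678). Among the Trav families, Trav12 fell in CPM with MCC950, by a log2 fold change of -0.33 ± 0.13 (adjusted p = 0.0385).

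The errors bound how far segments could have moved. For the 14 Trbv segments with a mean of at least 100 counts per library, standard errors of the log2 fold change against untreated ran from 0.09 to 0.20. Among those that did not pass, log2 fold changes ran from -0.12 ± 0.13 (Trbv13-1) to 0.40 ± 0.16 (Trbv15) with the antibody and from -0.29 ± 0.14 (Trbv13-3) to 0.22 ± 0.12 (Trbv1) with MCC950. Trbv31 changed in share by -0.06 ± 0.13 with the antibody and 0.00 ± 0.13 with MCC950, and Trbv16 by 0.17 ± 0.13 and -0.04 ± 0.13. For the 85 Trav segments tested, the median standard error was 0.43 with the antibody and 0.42 with MCC950. The smallest Trav change to pass in CPM was that of Trav14d-3-dv8, -0.51 at a standard error of 0.19, so changes of that size were not detectable for most Trav segments.

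Position along the Trav locus was compared after the values were seen, with no test. Segments behind the duplicated d and n blocks, which lie nearest to the J segments (47 segments, chromosome 14, 53390635 to 53977678), took 48.3%, 50.1% and 49.8% of Trav counts untreated. The same segments took 52.1%, 50.7% and 51.3% with the antibody and 53.1%, 52.1% and 54.1% with MCC950. All treated libraries were above all untreated ones. The 8 segments in front of the blocks, farthest from the J segments, took 2.38% ± 0.29, 2.10% ± 0.76 and 1.61% ± 0.20 (SD, n = 3), and all 3 MCC950 libraries were below the untreated ones. How reads were divided between copies of different blocks bears on these shares and was not tested.

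The partner genes of the receptor moved by small amounts. Among all genes tested, 34.0% were called with the antibody and 36.8% with MCC950. Of the 3 constant genes, Trac fell with the antibody (log2 fold change -0.17 ± 0.03, adjusted p = 5.83e-06) and with MCC950 (-0.09 ± 0.03, adjusted p = 0.00827), Trbc2 fell with the antibody (-0.10 ± 0.03, adjusted p = 0.00277) and Trbc1 rose with MCC950 (0.10 ± 0.03, adjusted p = 0.0157). Trbc1 and Trbc2 are close copies, so their split is uncertain. Of the 4 CD3 chains, which carry the receptor's signal, 1 rose and 1 fell with the antibody, and 3 rose and 1 fell with MCC950. Cd3e rose in both (0.26 and 0.22), and Cd247, the zeta chain, fell in both (-0.16 and -0.29).

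Of 20 tested genes of proximal receptor signalling, among them Ptprc and Lck, 2 rose and 8 fell with the antibody, and 5 rose and 8 fell with MCC950. Over all genes tested, 15.4% rose and 18.5% fell with the antibody, and 17.7% rose and 19.1% fell with MCC950. Of 12 factors that bind T cell receptor genes, among them Ets1 and Tcf7, 1 rose and 7 fell with the antibody, and 1 rose and 11 fell with MCC950. The median log2 fold change of this list was -0.13 and -0.22, beside 0.00 and 0.01 over all genes.

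Genes of V(D)J recombination, the joining of the segments, differed in level and direction. Rag1, which cuts the DNA together with Rag2, had 0 to 9 counts per library. Rag2 had 12, 9 and 26 counts untreated, 0, 0 and 6 with the antibody and 15, 41 and 26 with MCC950, and it fell with the antibody (log2 fold change -2.67 ± 0.84, adjusted p = 0.0115). Dclre1c, the Artemis nuclease, rose with both agents by 0.31 and 0.27 (adjusted p = 0.00977 and 0.0248). Dntt, which adds bases at the junctions, had 152 to 222 counts and did not pass. In total 1 of 9 tested genes rose and 1 fell with the antibody, and 1 rose with MCC950, where 34.0% and 36.8% of all genes were called.

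The 60 Traj and 14 Trbj segments are listed at 0 in all libraries, although every assembled receptor chain holds a J segment, so these files do not measure J use. The 6 Trdv segments summed to 12 to 22, 13 to 24 and 17 to 37 counts per library in the 3 groups, the Trgv segment to at most 2, and Tcrg-C1 to at most 9. Trdc, the delta constant gene, had 141 to 162 counts and did not pass with either agent. Of the 3 tested genes of the gamma delta list, 1 rose with each agent, where 34.0% and 36.8% of all genes were called. It was Blk, at 2.14 with the antibody (adjusted p = 0.00422) and 2.64 with MCC950 (adjusted p = 0.000354). Blk had 4, 9 and 4 counts untreated, 9, 34 and 21 with the antibody and 40, 30 and 34 with MCC950. The B cell markers, described below, had median log2 fold changes of 2.29 and 2.50. Which cells hold the Blk RNA was not tested, so its rise is not one of gamma delta cells by itself. Tcrg-C2, not tested, had 3, 0 and 0 counts untreated, 3, 0 and 2 with the antibody and 8, 5 and 9 with MCC950. Tcrg-C4, not tested either, had 0, 1 and 0, then 14, 1 and 2, then 7, 2 and 0.

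Markers of other cells moved with the treatments. Among all genes tested, 15.4% rose and 18.5% fell with the antibody, and 17.7% rose and 19.1% fell with MCC950. T cells of the CD8 lineage also carry alpha beta receptors. Of 10 tested CD8 T cell markers, 5 rose and 1 fell with the antibody and 4 rose with MCC950, and the list of 11 summed to 97.7 to 103, 138 to 140 and 140 to 143 CPM in the 3 groups. Cd8a had 16 to 21 counts in untreated libraries, 268 to 386 with the antibody and 337 to 390 with MCC950. Among genes of killing in that list, Gzmb had at most 10 counts in any library, while Prf1 had 529 to 966 and fell with the antibody (log2 fold change -0.31, adjusted p = 0.00118). Ctsw rose with both agents (0.42 and 0.49, adjusted p = 0.00037 and 4.503e-05), and Nkg7 rose with MCC950 (1.58, adjusted p = 0.00565). Their part in the V segment results was not tested.

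B cells carry no T cell receptor. While 15.4% of all genes rose with the antibody and 17.7% with MCC950, 19 of 20 B cell markers rose with each agent. The median log2 fold change over the list was 2.29 with the antibody and 2.50 with MCC950. The list summed to 327 to 348, 510 to 531 and 500 to 526 CPM, most of it Ighm, which had a mean of 306 CPM untreated and rose by only 0.35 and 0.26. The 348 immunoglobulin V segments summed to 15 to 25, 102 to 145 and 103 to 178 counts per library. Neutrophil and monocyte markers rose in 9 of 12 tested genes with the antibody and 8 of 12 with MCC950, at sums of 6.71 to 9.99, 38.9 to 46.0 and 32.0 to 35.0 CPM. These values stand beside the summed V segment CPM above, and their part in those was not tested.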

How the data were processed

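The members and gene lists were chosen with earlier results of these data known. Reads were aligned and quantified with STAR and RSEM on mm10, per the submitters' processing notes. Expected counts, as deposited, are unnormalized estimates from RSEM, which divides a read that matches several genes between those genes. Deposited TPM and FPKM values relate counts to effective length, per the file headers; TPM was used for levels between segments, and FPKM was not tested. Whether counting used read strand: not given in the sources used here. After rounding, the test was edgeR's quasi-likelihood one (version 4.0.16 in R 4.3.3, robust, TMM, filterByExpr, 3 group means over 9 libraries), with Benjamini-Hochberg adjustment over 13374 genes and a threshold of 0.05. Shares were tested in the same fit of all genes, with each library's size set to its Trav or Trbv total and no TMM factor. For genes outside the locus this fit tests the gene relative to the locus total, so its percentages of genes called move with that total. The adjusted p of a share is over all genes of the fit, not over the segments of the locus alone. Whether a share would pass among those segments alone was not tested. Single values per library were tested by exact permutation, two-sided. Segments were named by rule: the 8 highest per locus by TPM, up to 4 rises and 4 falls per comparison among those called with a mean of at least 100 counts and groups that do not overlap, and a fixed set. Copies are transcripts of GENCODE M21 that share at least 98% of their bases. Of the gene IDs, 99.4% had a symbol there. Replicate libraries differed by more than counting noise. The chi-square per degree of freedom was 3.72 to 5.19 over all genes tested, 1.99 to 4.48 over Trav and 2.00 to 4.99 over Trbv segments. The fit of counts was also run on simulated counts, drawn with its own estimate of the spread and with changes only in genes with more counts. That run does not cover segments with few counts or the split of reads between copies. Alternatives were other scalings, filters, DESeq2 1.42.0, limma 3.58.1, the replicate number as a block, sums of families and copies, TPM, functional segments alone, a threshold of 0.10, and leaving out each library.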

Additional observations from a re-analysis of the deposited data

How the results depend on the processing

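Sums of copies and TMM-scaled locus totals were added after seeing the data. Counts of called segments (3, 4 and 1 for the antibody, MCC950 and the agents against each other; 4, 3 and 0 in shares) are small, so most settings that change them by a few segments matter. For the antibody, the count was 8 at a threshold of 0.10, 6 (5 higher) with upper-quartile scaling, 7 (all higher) on library totals, 5 with a filter of 1 count, 8 in limma-trend on TPM and 1 for families. For MCC950 it was 2 without the robust option, and 3, all higher, on library totals. Between the agents it was 2 at a threshold of 0.10 and on its own 6 samples, and 0 in limma-voom, in limma-trend and without the robust option. In shares it was 8 at a threshold of 0.10, 1 for families and 2 for copies with the antibody, 8 at 0.10 with MCC950, and 1 between the agents with a filter of 1 count. Same-numbered libraries correlated at -0.01 to 0.063 in their deviations from group means, and differently numbered ones at -0.057 to 0.025. These values do not settle whether the numbers pair the libraries. With the replicate block the counts were 3, 3 and 1, and 5, 3 and 1 in shares. The block ended the calls of Trav14-3 and Trav14n-3 in counts and of Trbv13-2.

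Leaving out 1 library gave 2 to 4, 1 to 4 and 0 to 2 called segments, and 2 to 5, 0 to 3 and 0 to 1 in shares. The count for MCC950 was 1 without untreated library 1 or MCC950 library 2 or 3. That between the agents was 0 without untreated library 1 or any treated library and 2 without untreated library 2 or 3. In shares it was 2 without anti-IL-1b library 3, 1 and 0 for MCC950 without untreated library 2 and MCC950 library 2, and 1 between the agents without untreated library 2 or 3.

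Locus sums reversed on TMM-scaled totals: Trav by -10.8 (antibody) and -7.96 (MCC950) CPM and Trbv by -14.5 (MCC950). Effective numbers reversed for families, at 0.115 and 0.175 for Trav with the antibody and MCC950 and 0.410 for Trbv with MCC950, which also turned to 0.134 on TPM and 0.0093 with functional segments alone. Without 1 library, the sum of Trav between the agents ran from -3.89 to 0.357 and of Trbv with MCC950 from -1.86 to 6.88 CPM. Effective numbers ran from -1.88 to 0.401 (Trav, between the agents) and from -0.15 to 0.0294 (Trbv, MCC950). The cause of these changes was not tested. Counts per segment limit all of these results.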
